A study of Homo sapiens with 10 samples.

Results

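Base excision repair removes small, chemically altered bases from DNA. A glycosylase first cuts out the damaged base and leaves an abasic site, an AP endonuclease then nicks the strand at that site, DNA polymerase beta fills the gap, and a ligase held by the scaffold XRCC1 seals it, while PARP1 senses the open strand. In a longer variant of the pathway the replication polymerases, PCNA, FEN1 and LIG1 replace a short stretch instead of a single base. APEX1 is the main human AP endonuclease, and dividing cells draw on the pathway to clear uracil and oxidised bases.

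The genes described here are 10 core members of this pathway, chosen by name: the glycosylases UNG, OGG1, MUTYH, NTHL1 and NEIL3, the endonuclease APEX1, the polymerase POLB, the scaffold XRCC1, the ligase LIG3 and the sensor PARP1. They are 10 of 58395 genes listed in the count files, and all 10 were among the 16905 genes with enough reads to be tested. The set is built around APEX1, which the study had singled out for its fall with siGGGGGC at 24 h, so that contrast of APEX1 is given as values with no test. The other 29 genes of base excision repair were counted beside them.

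The measurements were RNA-seq read counts per gene in HeyA8, a human cell line long established from an ovarian adenocarcinoma. The parental line was transfected with 10 nM of a short interfering RNA (siRNA) and total RNA was taken after 24 or 48 h. The groups were siNT1 at 24 h, siGGGGGC at 24 h, siNT1 at 48 h, siGGCAGU at 48 h and siGGGGGC at 48 h, with 2 libraries each and 10 in all. siNT1 is a non-targeting control, and the labels write it as siNT1 S2'OM; the sample titles write siGGCAGU as si34a and siGGGGGC as siMxy. The 2 libraries of a group came from duplicate wells of 1 line, so the p-values measure the spread between wells, pooled over the 5 groups. This spread was unlike between groups. The chi-square of raw counts per degree of freedom was 2.29 (siNT1) and 3.49 (siGGGGGC) at 24 h. At 48 h it was 31.4 (siNT1), 42.5 (siGGCAGU) and 11.2 (siGGGGGC). The siNT1 control was part of each comparison except the direct one of siGGGGGC with siGGCAGU, and cells without any siRNA were not analysed here.

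The siRNAs are named for the seed of their guide strand, the bases 2 to 7 that a small RNA pairs with in the 3′ untranslated region (3′ UTR) of a messenger RNA. A messenger RNA with the reverse complement of the seed holds a seed match, which is GCCCCC for siGGGGGC and ACTGCC for siGGCAGU in DNA letters. siGGCAGU carries the seed of miR-34a-5p, a microRNA known as a tumor suppressor. To show the shared letters, the mature sequences of miR-34a-5p (chr1:9151735-9151756, minus strand) and of miR-1237-5p (chr11:64368651-64368671, plus strand), a human microRNA with GGGGGC at the same bases, are printed from RefSeq (GRCh38.p14) with bases 2 to 8 in capitals. The letters shared with the siRNA seeds are bases 2 to 7, and the capital at base 8 lies outside them.
hsa-miR-34a-5p: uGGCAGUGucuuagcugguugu
hsa-miR-1237-5p: cGGGGGCGgggccgaagcgcg

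Of the 10 genes, 4 held GCCCCC in their longest annotated 3′ UTR: APEX1, OGG1 and MUTYH once each and LIG3 at 2 places. The share among all 19248 genes with an annotated 3′ UTR was 30.2%. The study picked APEX1 from genes with GCCCCC in their 3′ UTR, so its match was a condition of that choice. Each site is printed below in the sense of the messenger RNA with its surroundings, the match in capitals (hg38, GENCODE 44). The APEX1 site lay at base 36 of the 259 bases of the 3′ UTR of its canonical transcript, at chr14:20457544-20457549 on the plus strand. The sites of the other genes were at chr3:9765885-9765890 on the plus strand (OGG1), at chr1:45329289-45329294 on the minus strand (MUTYH) and at chr17:35006795-35006800 and chr17:35006814-35006819 on the plus strand (LIG3). Both LIG3 sites stood close together, at bases 2289 and 2308 of a 3′ UTR of 5237 bases.
APEX1: cctgggaaataaGCCCCCtcaactaccatt
OGG1: acctccgagaagGCCCCCctatcgggagag
MUTYH: cacctctgaaaGCCCCCattccctgagaa
LIG3, upstream site: aaggaccactgcGCCCCCtggccaccccac
LIG3, downstream site: ggccaccccaccGCCCCCccccaactttga

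These counts depended on the transcript. OGG1's site was absent from the 3′ UTR of its canonical transcript, which has 257 bases. UNG held no match in its longest 3′ UTR, but the 3′ UTR of its canonical transcript, with 1023 bases, held 1 GCCCCC and 2 ACTGCC. Counting the canonical transcripts, 4 of the 10 genes held GCCCCC (UNG, MUTYH, APEX1 and LIG3), and over all annotated 3′ UTRs 5 did. ACTGCC stood at 2 places in the longest 3′ UTR of LIG3, and with the canonical transcripts UNG joined it.

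Library totals ranged from 19781445 to 42428986 counts, of which the noncoding RNAs RN7SL2 and SNORD3A took 19.83% to 31.96%. The libraries held the keratins KRT7, KRT8 and KRT18 (1777 to 11235 counts) together with the mesenchymal genes VIM, CDH2, ZEB1 and FN1, while the epithelial cadherin CDH1 had at most 26 counts. Of 4 ovarian tumor markers, PAX8 had 84 to 1142 counts, WT1 31 to 191, MSLN 21 to 140 and MUC16 0 to 26. The leukocyte markers PTPRC, CD3E and CD14 had at most 5 counts and the endothelial PECAM1, CDH5 and VWF at most 28. The summed normalised count of 12 proliferation genes was 55204 and 56842 with siNT1 at 24 h, 72399 and 74827 with siGGGGGC at 24 h, 50299.6 and 50642 with siNT1 at 48 h, 14200.2 and 14927 with siGGCAGU at 48 h, and 34776 and 34953 with siGGGGGC at 48 h. All 12 fell with siGGCAGU (24.9% of all tested genes did) and 8 of 12 fell with siGGGGGC at 48 h (27.5%). With siGGGGGC at 24 h, 6 of 12 rose (10.6% of all tested genes). The summed normalised count of the 6 epithelial markers was 17084 and 17278 with siNT1 and 6495 and 6879 with siGGGGGC at 48 h, and that of the 4 mesenchymal markers 58918 and 61803 against 25158 and 25754. That of the 4 ovarian markers was 844 and 881 with siNT1, 894 and 1016 with siGGCAGU and 154 and 196 with siGGGGGC at 48 h. PAX8 (log2 fold change -2.70), MSLN (-1.71) and WT1 (-1.29) each fell with siGGGGGC at 48 h. With siGGCAGU WT1 fell as well (-1.33), whereas PAX8 rose (0.32) and MSLN was not called (-0.17). The part of these markers in the results at 48 h was not tested.

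Per transcript length (RPKM, reads scaled by library size and by the length of the canonical transcript, mean ± SD of 2 libraries), APEX1 was the most abundant of the 10 in the siNT1 cells at 24 h, at 63.5 ± 0.68 RPKM. UNG followed at 37.2 ± 2.14, then PARP1 at 16.1 ± 0.577 and POLB at 11.7 ± 0.288 RPKM. NTHL1 at 4.82 ± 1.07, NEIL3 at 4.41 ± 0.102 and OGG1 at 4.02 ± 0.174 RPKM did not differ beyond the spread of NTHL1, nor did MUTYH at 3.40 ± 0.175 and XRCC1 at 3.18 ± 0.504 RPKM beyond that of XRCC1. LIG3 was the lowest at 1.02 ± 0.0951 RPKM. With siGGGGGC at 48 h APEX1 stood in the fourth place at 8.98 ± 0.26 RPKM, behind UNG (33.3 ± 0.4), POLB (17.9 ± 0.509) and PARP1 (13.9 ± 0.176). The order rests on the length used: over the union of all annotated exons APEX1 was at 6.92 RPKM in those cells and only UNG, at 12.9 RPKM, stood above it.

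**Figure D1:**
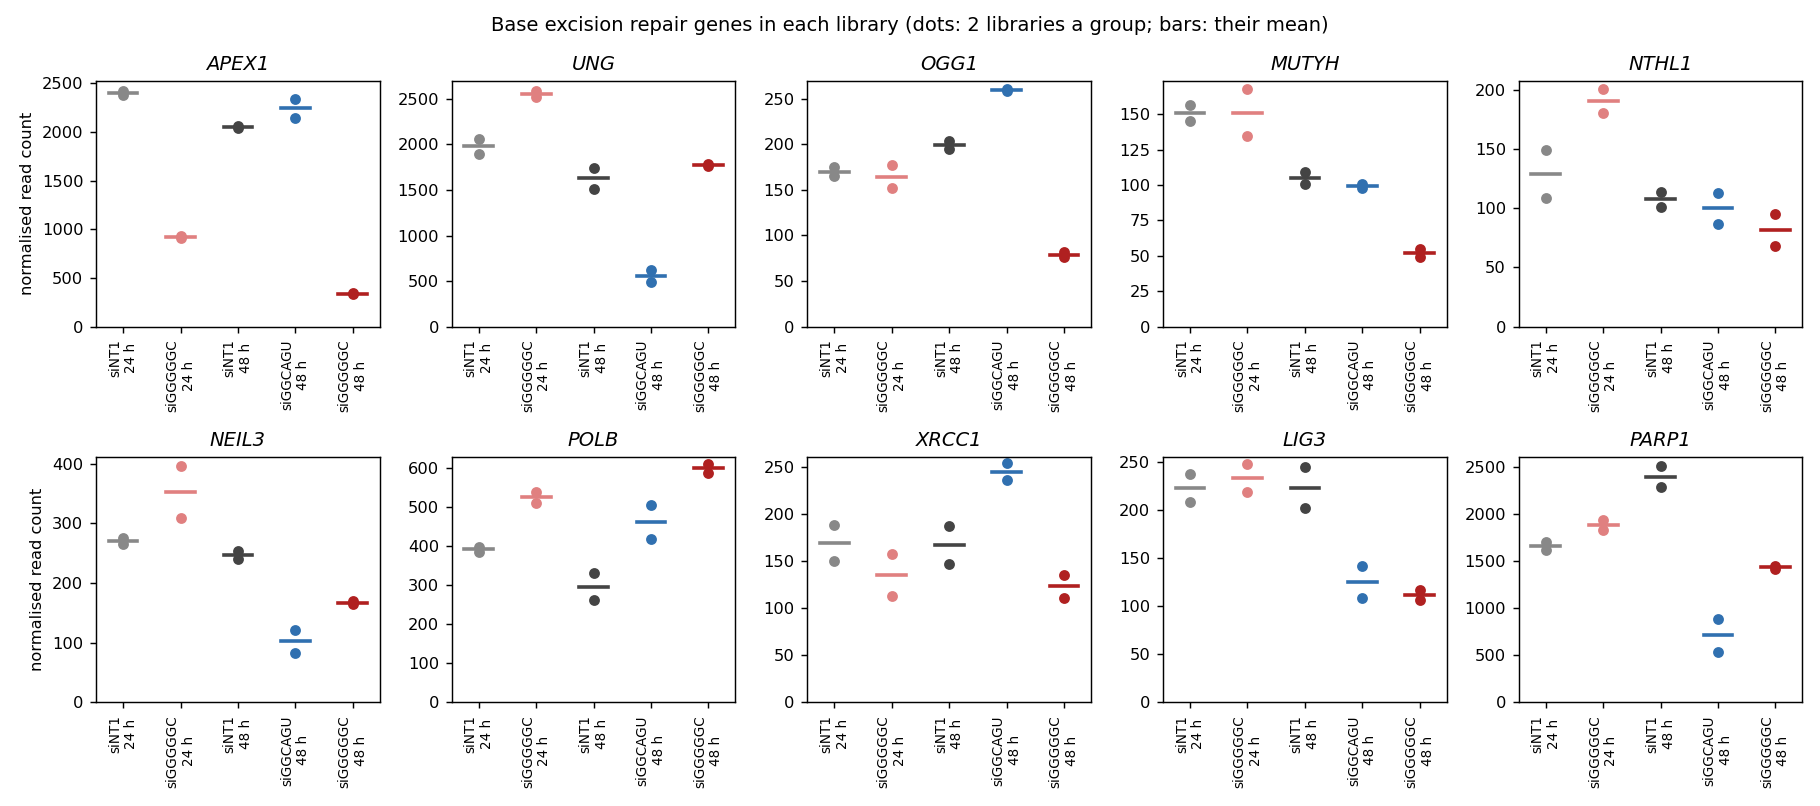
Normalised read count (vertical axes, from 0) of each gene in the 10 libraries, 2 dots per group with a bar at their mean; the scales differ between genes. APEX1 has 2381 and 2417 counts with siNT1 at 24 h and 332 and 346 with siGGGGGC at 48 h, and UNG and PARP1 have their lowest dots with siGGCAGU.

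APEX1 nicks the DNA backbone at abasic sites and also acts as a redox factor for transcription factors. Its normalised read count (the count scaled by the effective library size) was 2381 and 2417 in the siNT1 libraries at 24 h and 907 and 934 in the siGGGGGC libraries at 24 h. At 48 h it was 2041 and 2055 with siNT1, 2141 and 2342 with siGGCAGU, and 332 and 346 with siGGGGGC. The siGGGGGC libraries were below every other library at both times, and those at 48 h were below those at 24 h. In cells at 24 h the log2 fold change against siNT1 was -1.38 (2.61-fold lower), which is the contrast that APEX1 was picked from. At 48 h, in libraries outside that contrast, APEX1 fell with siGGGGGC by 2.59 on the log2 scale (± 0.09 SE, 6.04-fold lower). The adjusted p was 1.52e-11 (quasi-likelihood test of edgeR with Benjamini-Hochberg adjustment over all 16905 genes, as for each adjusted p here). The genes described here were chosen with earlier results of these data known, so the fall at 48 h is no independent check of the choice. A lower value in bulk RNA cannot tell fewer cells with the transcript from less of it per cell. With siGGCAGU the log2 fold change was 0.13 ± 0.08 SE (95% confidence interval -0.04 to 0.30, adjusted p = 0.192). The direct comparison of both siRNAs at 48 h gave 6.61-fold less APEX1 with siGGGGGC (log2 fold change -2.73, adjusted p = 9.06e-12). All alternatives kept the fall at 48 h, between -2.72 and -2.57. APEX1 shares 4.9% of its exon bases with PIP4P1 on the opposite strand, which had 3103 reads in all libraries together.

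At 24 h, where APEX1 is left out of the counts because it was picked from that contrast, siGGGGGC against siNT1 had 0 of the other 9 genes lower, with 8.32% of all tested genes lower, and 2 higher (UNG and POLB), with 10.6% of genes higher. The other 7 did not pass, and of the 9 none was lower in edgeR at an unadjusted p below 0.05 or by DESeq2. UNG and POLB each lost the call without siNT1 24 h replicate 1, siNT1 24 h replicate 2, siGGGGGC 24 h replicate 1 or siGGGGGC 24 h replicate 2, and NTHL1 gained one without siNT1 24 h replicate 2. The median log2 fold change of the 9 was 0.18, against 0.00 for all tested genes. At 48 h siGGGGGC lowered 7 of the 10 (27.5% of all genes were lower) and raised POLB (27.8% higher), with UNG and NTHL1 not called and a median of -0.65, against -0.01 for all genes. Of these 7, XRCC1 lost its call in 8 of 12 alternatives and NEIL3 in 1. Without APEX1, 6 of the other 9 were lower with siGGGGGC at 48 h and 1 higher, with a median of -0.565. APEX1, OGG1 and MUTYH fell past 2-fold (11% of genes lower by this rule) and POLB rose past it (10.5% higher). At 48 h siGGCAGU lowered 4 (UNG, NEIL3, LIG3 and PARP1; 24.9% of genes lower) and raised 3 (OGG1, POLB and XRCC1; 27.8% higher), and its median was -0.10, against 0.02 for all genes. UNG, NEIL3 and PARP1 fell past 2-fold (9.62% of genes did). Both comparisons at 48 h share the siNT1 libraries. Between the siRNAs, 4 of the 10 were lower with siGGGGGC (27.6% of genes) and 4 higher (26.7%), and past 2-fold APEX1 and OGG1 were lower (12.8% of genes) and UNG higher (10.1%). The siGGGGGC effect was lower at 48 h than at 24 h in 6 of the 9 genes beside APEX1 (15.2% of genes) and higher in POLB (13.4%).

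**Figure D2:**
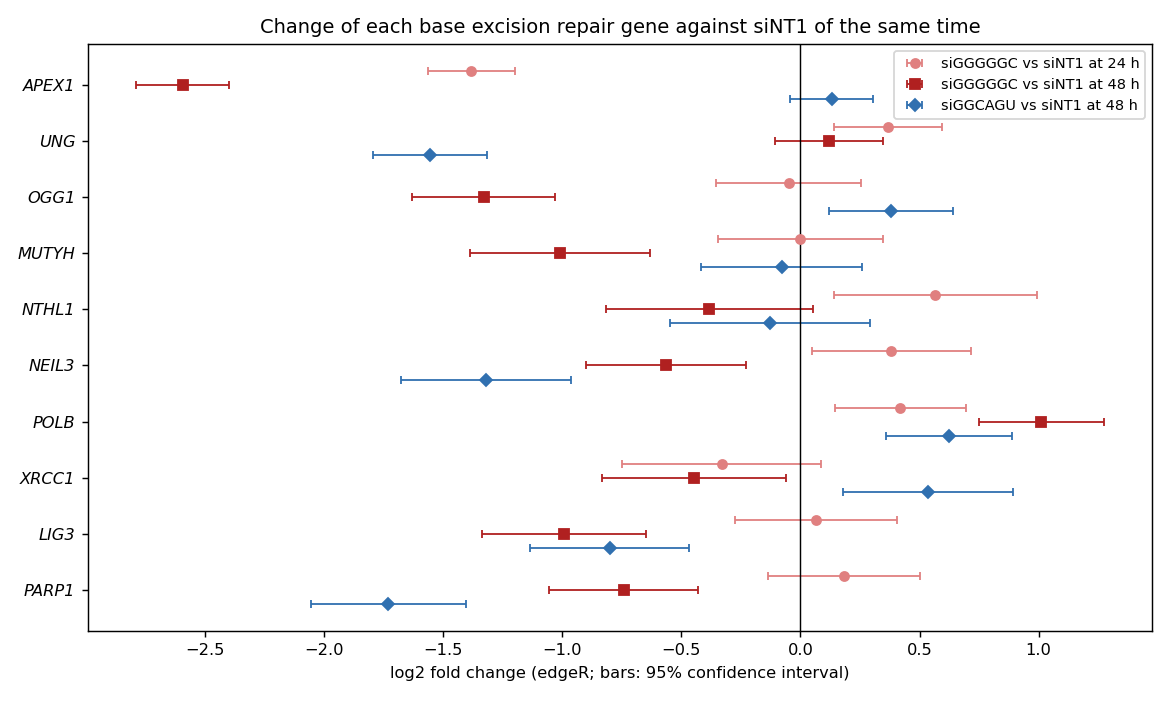
Log2 fold change (horizontal axis) of each gene against siNT1 of the same time, with its 95% confidence interval, for siGGGGGC at 24 h (light red circles), siGGGGGC at 48 h (red squares) and siGGCAGU at 48 h (blue diamonds). APEX1, OGG1 and MUTYH are lowest with siGGGGGC at 48 h, whereas UNG, NEIL3 and PARP1 are lowest with siGGCAGU.

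Among the glycosylases, UNG removes uracil from DNA and is most abundant in dividing cells. It was at 1899.8 and 2061 normalised counts with siNT1 and at 2591 and 2521 with siGGGGGC at 24 h. At 48 h it was at 1514 and 1747 with siNT1, at 625 and 493 with siGGCAGU, and at 1758 and 1788 with siGGGGGC. The siGGCAGU libraries were the lowest of all, and those of siGGGGGC at 24 h were the highest. UNG fell with siGGCAGU by 1.56 on the log2 scale (± 0.11 SE, 2.94-fold lower, adjusted p = 1.69e-08). With siGGGGGC it rose at 24 h by a log2 fold change of 0.37 ± 0.11 SE (adjusted p = 0.0242), and this call was lost when either siNT1 library (0.31 without replicate 1, 0.44 without replicate 2) or either siGGGGGC library (0.36 and 0.40) was left out. At 48 h its log2 fold change with siGGGGGC was 0.12 (95% confidence interval -0.10 to 0.34, adjusted p = 0.353), and between the siRNAs UNG was 3.20-fold higher with siGGGGGC (adjusted p = 7.94e-09). The proliferation sums were also lowest with siGGCAGU and highest with siGGGGGC at 24 h, but with siGGGGGC at 48 h they were below siNT1 whereas the UNG libraries were above it. Their part in the UNG values was not tested.

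OGG1 and MUTYH both guard against 8-oxoguanine, OGG1 by cutting out the oxidised base and MUTYH by removing the adenine mispaired with it. OGG1 was at 175 and 165 normalised counts with siNT1 and at 152 and 177 with siGGGGGC at 24 h, where the groups overlapped (log2 fold change -0.05, 95% confidence interval -0.35 to 0.25). At 48 h it was at 194 and 203 with siNT1, at 260.25 and 258 with siGGCAGU, and at 81.6 and 76.6 with siGGGGGC. OGG1 thus had its highest libraries with siGGCAGU and its lowest with siGGGGGC. It fell with siGGGGGC by 1.33 on the log2 scale (± 0.14 SE, 2.52-fold lower, adjusted p = 1.26e-06), and it was 3.27-fold lower than with siGGCAGU (adjusted p = 7.92e-08). The rise with siGGCAGU (log2 fold change 0.38 ± 0.12 SE, adjusted p = 0.0162) was lost without siNT1 replicate 1 (0.34, adjusted p = 0.0614), without siGGCAGU replicate 2 (0.38, adjusted p = 0.0552) and with DESeq2 (adjusted p = 0.0912); adjusted p over all alternatives ran from 0.0116 to 0.17. OGG1 shares 24.9% of its exon bases with CAMK1 on the opposite strand, which had 99 reads in all 10 libraries together. It also shares 4.1% with TADA3 on the opposite strand, which had 4354 reads.

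MUTYH was at 156 and 145 normalised counts with siNT1 and at 167 and 134 with siGGGGGC at 24 h, again overlapping. At 48 h it was at 101 and 109 with siNT1, at 98.1 and 100.4 with siGGCAGU, and at 49.2 and 54.9 with siGGGGGC. Its fall with siGGGGGC at 48 h was 1.01 on the log2 scale (± 0.18 SE, 2.01-fold lower, adjusted p = 0.000189), and with siGGCAGU its log2 fold change was -0.08 (95% confidence interval -0.42 to 0.26). MUTYH also shares 8.4% of its exon bases with TOE1 on the opposite strand (3496 reads in all libraries together). It shares 31.6% with an annotated protein-coding gene on the same strand, which was not among the genes counted. At these low counts OGG1 and MUTYH had 44 to 355 raw reads per library.

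NTHL1, which removes oxidised pyrimidines, passed in none of the comparisons with siNT1 with the filter on low counts and all groups and libraries fitted. It was at 109 and 149 normalised counts with siNT1 and at 201 and 180.2 with siGGGGGC at 24 h. At 48 h it was at 114 and 101 with siNT1, at 112 and 87.0 with siGGCAGU, and at 68.2 and 95.3 with siGGGGGC. The siGGGGGC libraries did not overlap siNT1 at either time. Among all tested genes, 32% lay wholly above siNT1 at 24 h and 39.3% wholly below it at 48 h. NTHL1 was above siNT1 at 24 h (log2 fold change 0.57 ± 0.20 SE, unadjusted p = 0.0123 and adjusted p = 0.0604 in edgeR) and below it at 48 h (-0.38 ± 0.20 SE, unadjusted p = 0.0807, adjusted p = 0.126). The value at 24 h passed without siNT1 replicate 2 (0.82, adjusted p = 0.0457), without the filter on low counts (0.58, adjusted p = 0.0256) and when the compared groups alone were fitted (0.55, adjusted p = 0.0172). The value at 48 h also passed without the filter on low counts (-0.51, adjusted p = 0.0337).

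NEIL3 acts on oxidised bases in single-stranded DNA and on crosslinks, and is made mostly by dividing cells. It was at 266 and 275 normalised counts with siNT1 and at 309 and 396 with siGGGGGC at 24 h (log2 fold change 0.38 ± 0.16 SE, adjusted p = 0.106, or 0.0312 with the compared groups alone). At 48 h it was at 240.1 and 254 with siNT1, at 122 and 82.6 with siGGCAGU, and at 169.9 and 165 with siGGGGGC. Both siRNAs had lower libraries than siNT1, and siGGCAGU had the lowest. NEIL3 fell by 1.32 on the log2 scale with siGGCAGU (± 0.17 SE, 2.50-fold lower, adjusted p = 7.94e-06) and by 0.57 with siGGGGGC (± 0.16 SE, adjusted p = 0.00672; 0.0507 without siGGGGGC replicate 2). It was 1.69-fold higher with siGGGGGC than with siGGCAGU (adjusted p = 0.00221), a call that was lost without siGGCAGU replicate 2 (log2 fold change 0.45, adjusted p = 0.0648). The proliferation sums had the same order of groups at 48 h, and their part was not tested.

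POLB, which fills the gap and trims the sugar left at its end, was the 1 gene of the 10 that rose with siGGGGGC at 48 h. Its normalised counts were 399 and 385 with siNT1 and 510 and 539 with siGGGGGC at 24 h. At 48 h they were 261 and 331 with siNT1, 505 and 417 with siGGCAGU, and 587 and 611 with siGGGGGC. All siRNA libraries lay above the siNT1 libraries of their time. POLB rose with siGGGGGC at 48 h 2.02-fold (log2 fold change 1.01 ± 0.12 SE, adjusted p = 5.27e-06) and with siGGCAGU 1.54-fold (log2 fold change 0.63 ± 0.12 SE, adjusted p = 0.000586). At 24 h the rise was 0.42 ± 0.13 SE (adjusted p = 0.0339); it was lost without siNT1 replicate 1 (0.45) or 2 (0.41), without siGGGGGC replicate 1 (0.47) or 2 (0.39), and with upper quartile normalization (adjusted p = 0.0562). The excess of siGGGGGC over siGGCAGU at 48 h (log2 fold change 0.39 ± 0.12 SE, adjusted p = 0.0148) was lost without siGGCAGU replicate 2 (0.24) and without siGGGGGC replicate 1 (0.41) or 2 (0.36).

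XRCC1 holds the ligase and other repair proteins at the break. Its normalised counts were 189 and 151 with siNT1 and 157 and 113 with siGGGGGC at 24 h (log2 fold change -0.33 ± 0.20 SE, adjusted p = 0.272). At 48 h they were 147 and 187 with siNT1, 254 and 236 with siGGCAGU, and 111 and 136 with siGGGGGC. The siNT1 libraries lay between those of both siRNAs. XRCC1 fell with siGGGGGC by 0.45 (± 0.18 SE, adjusted p = 0.0474) and rose with siGGCAGU by 0.54 (± 0.17 SE, adjusted p = 0.0136), and the direct difference was 1.98-fold (log2 fold change -0.98 ± 0.18 SE, adjusted p = 0.000272). The fall was near the threshold and was lost without siNT1 replicate 2 (log2 fold change -0.26, adjusted p = 0.308), without siGGGGGC replicate 1 (-0.32, adjusted p = 0.276) or 2 (-0.60, adjusted p = 0.0512), with the replicate block (adjusted p = 0.0591) and with DESeq2 (adjusted p = 0.0974), and over all alternatives adjusted p ran from 0.00344 to 0.308. The rise was lost without siNT1 replicate 1 (0.37, adjusted p = 0.104). The direct difference between the siRNAs passed in all alternatives.

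LIG3 seals the nick and also serves mitochondrial DNA. Its normalised counts were 237 and 208 with siNT1 and 248 and 219 with siGGGGGC at 24 h, which overlapped. At 48 h they were 245 and 202 with siNT1, 109 and 142 with siGGCAGU, and 106 and 117 with siGGGGGC. Both siRNAs had lower LIG3 than siNT1 and overlapped each other. The fall was 0.99 on the log2 scale with siGGGGGC (± 0.16 SE, 1.99-fold lower, adjusted p = 8.98e-05) and 0.80 with siGGCAGU (± 0.16 SE, 1.74-fold lower, adjusted p = 0.000481), and the difference between them was -0.19 (95% confidence interval -0.56 to 0.18, adjusted p = 0.377). LIG3 holds both seed matches in its 3′ UTR of 5237 bases. Among genes with a 3′ UTR of similar length, 48.0% held GCCCCC and 64.9% held ACTGCC. LIG3 shares 29.1% of its exon bases with RFFL on the opposite strand, which had 1047 reads in all libraries together.

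PARP1 binds broken DNA and marks nearby proteins with ADP-ribose. Its normalised counts were 1705 and 1621 with siNT1 and 1939 and 1837 with siGGGGGC at 24 h (log2 fold change 0.18 ± 0.15 SE, adjusted p = 0.444). At 48 h they were 2516 and 2290.3 with siNT1, 540.1 and 889 with siGGCAGU, and 1423 and 1449 with siGGGGGC. The 2 siGGCAGU libraries were the lowest and stood well apart from each other. PARP1 fell with siGGCAGU by 1.73 on the log2 scale (± 0.15 SE, 3.32-fold lower, adjusted p = 1.53e-07) and with siGGGGGC by 0.74 (± 0.15 SE, 1.67-fold lower, adjusted p = 0.000529). It was 1.98-fold higher with siGGGGGC than with siGGCAGU (adjusted p = 5.51e-05). PARP1 held no match to either seed in its annotated 3′ UTRs. The proliferation genes were also lower with both siRNAs at 48 h and lowest with siGGCAGU, and their part was not tested.

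In the control cells themselves, siNT1 at 48 h against 24 h, MUTYH fell by 0.52 (adjusted p = 0.0335) and POLB by 0.40 (adjusted p = 0.0451), 2 of the 10 against 7.2% of all genes lower. PARP1 rose by 0.53 (adjusted p = 0.0247), 1 of the 10 against 9.37% of genes higher. These changes were smaller than 2-fold and weakly held: MUTYH, POLB and PARP1 each no longer passed without siNT1 24 h replicate 1, without siNT1 24 h replicate 2 and without siNT1 48 h replicate 1, with log2 fold changes between -0.56 and -0.46 for MUTYH, between -0.41 and -0.23 for POLB and between 0.47 and 0.57 for PARP1. APEX1 had a log2 fold change of -0.23 (adjusted p = 0.0682).

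The 4 genes with GCCCCC in the longest 3′ UTR were the 4 with the lowest log2 fold change at 48 h with siGGGGGC: APEX1, OGG1, MUTYH and LIG3 lay between -2.59 and -0.99, and the other 6 between -0.74 and 1.01. This ordering is a description of genes chosen with earlier results known and has no test. The study picked APEX1 for holding GCCCCC as well as for its fall at 24 h, so its place here was partly set by that choice. At 24 h, OGG1, MUTYH and LIG3 were between -0.05 and 0.07, so that of the 4 only APEX1 was far from siNT1. With canonical 3′ UTRs the groups overlapped, since UNG (0.12) then held the match and OGG1 (-1.33) did not. For comparison, the median log2 fold change at 48 h was -0.15 over the 3919 tested genes with GCCCCC and 0.07 over the 8478 without it. Among the other 29 genes of the pathway, the 4 with GCCCCC (SMUG1, NEIL1, TDP1 and POLD4) had values between -1.17 and -0.51 with a median of -0.87, and the 25 without it ran from -1.48 to 1.80 with a median of -0.26. NEIL1 (adjusted p = 0.0663) and POLD4 (adjusted p = 0.0545) did not pass, and the site of SMUG1 is absent from its canonical 3′ UTR. At 24 h the medians were 0.20 with GCCCCC and 0.12 without it among these 29, and 0.01 and 0.04 over all tested genes. For siGGCAGU, LIG3 (-0.80) was the 1 gene of the 10 with ACTGCC in the longest 3′ UTR, while PARP1, UNG and NEIL3, without it there, had the 3 lowest values. The canonical 3′ UTR of UNG, however, held ACTGCC at 2 places.

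**Figure D3:**
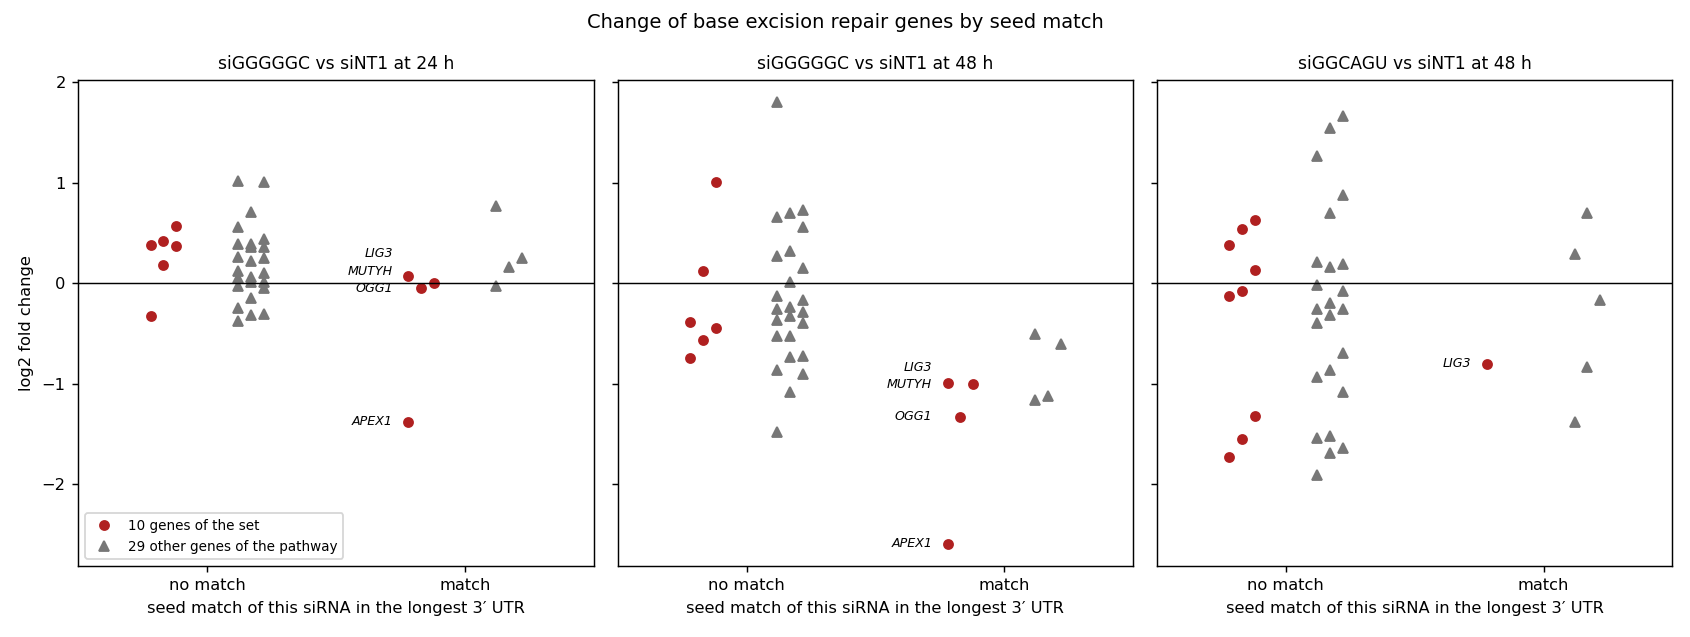
Log2 fold change (vertical axis) of the 10 genes (red dots, those with a match named) and of the 29 other pathway genes (grey triangles) by whether the longest annotated 3′ UTR holds the seed match of the siRNA. At 48 h with siGGGGGC, APEX1, OGG1, MUTYH and LIG3 lie below the 6 genes without a match, and UNG counts as having no match here although its canonical 3′ UTR holds one.

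The wider pathway was counted from a list of 29 genes. With siGGGGGC at 24 h, 1 was lower (8.32% of all tested genes) and 8 were higher (10.6%); the count of 9 came to 4 without siNT1 24 h replicate 1, to 5 without siNT1 24 h replicate 2 and to 5 without siGGGGGC 24 h replicate 1. The glycosylase MPG, which removes alkylated purines, and POLE3, a subunit of DNA polymerase epsilon, rose past 2-fold (log2 fold changes 1.00 and 1.02, adjusted p = 0.00608 and 3.65e-06; 1.55% of genes rose by this rule). At 48 h, siGGGGGC lowered 13 of the 29 (27.5% of all genes) and raised 6 (27.8% of all genes), and their median log2 fold change was -0.33, against -0.01 for all genes. Past 2-fold, 3 of the 29 fell (11% of all genes) and 1 rose (10.5% of all genes). The fallen genes were the uracil glycosylase SMUG1 (-1.17, adjusted p = 3.85e-07), the second endonuclease APEX2 (-1.48, adjusted p = 2.26e-06) and the ADP-ribosyltransferase PARP2 (-1.08, adjusted p = 0.000176), and MPG rose (1.80, adjusted p = 1.48e-06). Both AP endonucleases, APEX1 and APEX2, were therefore lower with siGGGGGC at 48 h. APEX2 (-0.94, adjusted p = 0.000111) and PARP2 (-0.87, adjusted p = 0.000976) also fell with siGGCAGU at 48 h, whereas SMUG1 rose (0.29, adjusted p = 0.0259). Between the siRNAs, PARP2 was not called (-0.22, adjusted p = 0.384) and APEX2 was lower with siGGGGGC (-0.54, adjusted p = 0.0204).

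siGGCAGU lowered 12 of the 29 (24.9% of all genes) and raised 7 (27.8% of all genes), and 8 of the 12 falls were among the 11 long-patch genes, whose median log2 fold change was -1.38. FEN1, the flap nuclease, fell by 1.91 (adjusted p = 1.09e-10), and the polymerase subunits POLE by 1.70 (adjusted p = 6.48e-09), POLD1 by 1.65 (adjusted p = 8.62e-08), POLE2 by 1.52 (adjusted p = 6.78e-07) and POLD3 by 1.38 (adjusted p = 1.05e-08). The ligase LIG1 fell by 1.55 (adjusted p = 7.57e-09) and the clamp PCNA by 1.09 (adjusted p = 3.33e-07). These genes also serve DNA replication, and the 12 proliferation genes fell with siGGCAGU by a median of 1.99; their part was not tested. In these cells PARP3 (1.55, adjusted p = 2.28e-08), MPG (1.66, adjusted p = 3.61e-06) and APLF (1.27, adjusted p = 0.00115) rose past 2-fold (10.7% of genes did).

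With siGGGGGC at 48 h the same 11 long-patch genes had 6 lower and 1 higher with a median of -0.40, and between the siRNAs 8 of the 11 were higher with siGGGGGC. Over all 29 genes, siGGGGGC and siGGCAGU differed in 18, with 7 lower (27.6% of all genes) and 11 higher (26.7%) with siGGGGGC, so the total was near the share over all genes. The larger differences were in PARP3 (log2 fold change -1.81, adjusted p = 7.88e-09), POLD4 (-1.49, adjusted p = 0.000106) and SMUG1 (-1.46, adjusted p = 3.26e-08) on the lower side, and in FEN1 (1.38, adjusted p = 2.94e-09), POLD1 (1.36, adjusted p = 8.92e-07) and POLE (1.17, adjusted p = 4.4e-07) on the higher side.

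**Figure D4:**
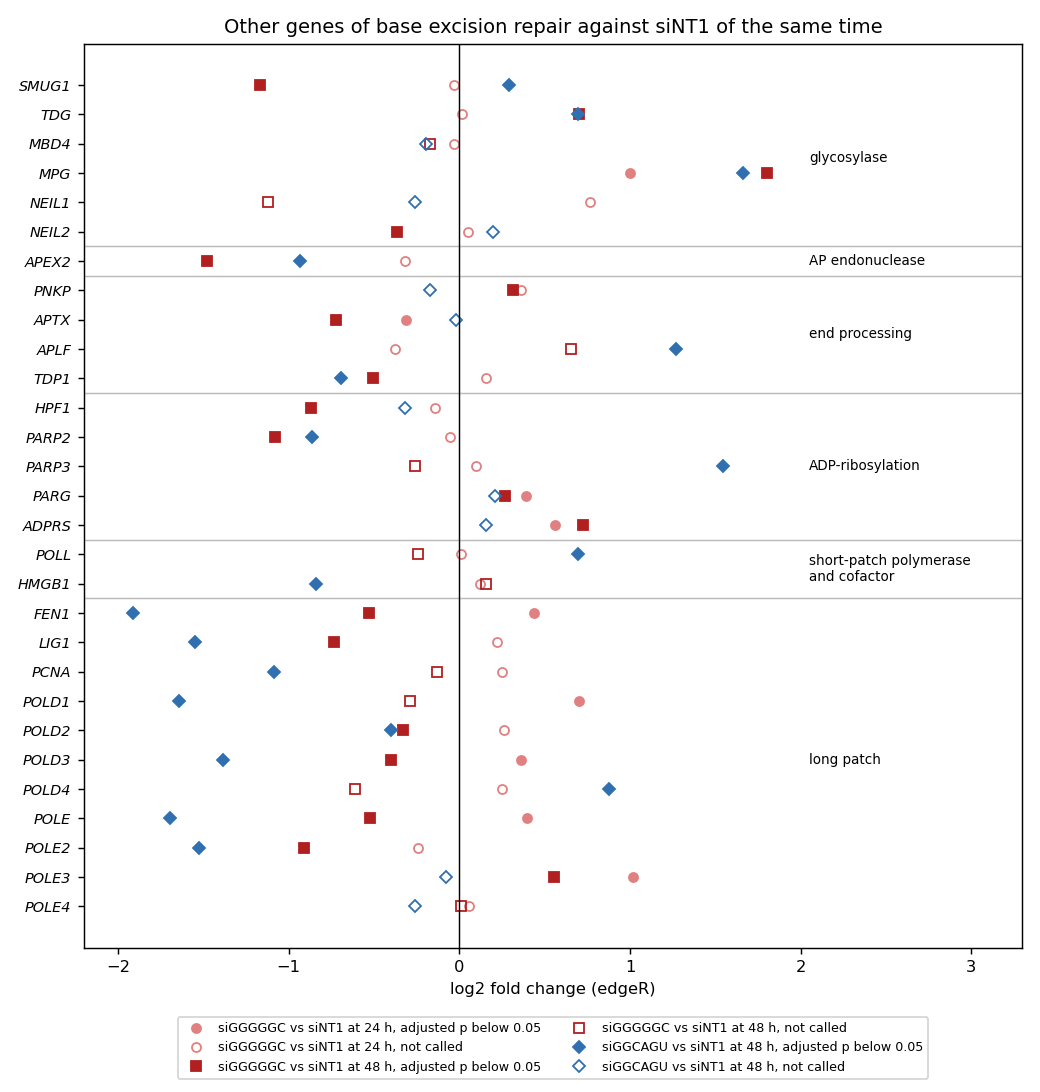
Log2 fold change (horizontal axis) of the 29 other genes of base excision repair, grouped by role, against siNT1 of the same time; filled symbols have an adjusted p below 0.05. The blue diamonds of siGGCAGU reach below -1 in 7 long-patch genes, and APEX2 and SMUG1 are lowest with siGGGGGC at 48 h.

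Enzymes of the nucleotide pool were measured beside the pathway. NUDT1, which hydrolyses oxidised purine nucleotides, rose with siGGGGGC at 24 h (log2 fold change 0.37, adjusted p = 0.0376) and fell with siGGCAGU (-0.50, adjusted p = 0.00196), and at 48 h with siGGGGGC it had 0.21 (adjusted p = 0.133). NUDT18 rose with siGGCAGU (1.23, adjusted p = 0.000622), and with siGGGGGC at 48 h its value was -0.48 (adjusted p = 0.208).

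The genes most like APEX1 across the 10 libraries, by Pearson's r of log2 CPM (reads scaled by library size) among the 3505 tested genes with a mean normalised count of at least 1000, were AARS1 (r = 0.984), GIPC1 (0.981), KIF1C (0.981), BCAT1 (0.979) and HDGF (0.978). By rank (Spearman's rho) the values in the same order were 0.964, 0.673, 0.685, 0.903 and 0.879. The median r of all 3505 genes was -0.10. The 10 points fall into 5 groups that share treatment and time, so r describes these libraries and has no test. AARS1, an alanyl-tRNA synthetase, had 1968 and 2028 normalised counts with siNT1 at 24 h and 856 and 1013 with siGGGGGC at 48 h. KIF1C, a kinesin, went from 2887 and 2845 to 739 and 803 in the same groups. Like APEX1, both were lower with siGGGGGC at 48 h than at 24 h, where AARS1 had 1431 and 1476 and KIF1C 1291 and 1331 normalised counts.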

How the data were processed

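Total RNA of HeyA8 cells was sequenced in 10 libraries. The authors trimmed reads, aligned them to hg38 and counted exonic reads per gene with HTSeq; the submitters' processing notes name TopHat and Bowtie2, the methods TopHat or STAR, and the strand setting is not given in the sources used here, so overlapping genes on opposite strands may share reads. The deposited files held raw counts of 58395 genes, with 0 entries that name no gene, and 98.9% of identifiers were found in GENCODE 44. The 4 deposited tables of the authors' comparisons (fold changes and p-values) were not used.

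Counts were fitted with the quasi-likelihood test of edgeR 4.0.16 (R 4.3.3; TMM, filterByExpr) over all 5 groups, leaving 5 residual degrees of freedom, and tested on simulated data. A gene was called at an adjusted p below 0.05, and past 2-fold with a log2 fold change beyond 1. DESeq2 1.42.0 was an alternative. Normalised counts are counts over the TMM library size times its mean. Log2 CPM used a prior count of 2.

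Members and lists were chosen with earlier results of these data known. All 10 members were named; of the other pathway genes, those past 2-fold in a comparison; some genes and sites of the lists are not reported here. Seed matches were counted in the longest annotated 3′ UTR; canonical 3′ UTRs and exon-union lengths were alternatives added after seeing the data.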

Additional observations from a re-analysis of the deposited data

Results flagged for a closer look

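The siGGGGGC effect differed between 48 h and 24 h in 7 of the genes beside APEX1, by a test of the difference itself (interaction term, edgeR quasi-likelihood test, Benjamini-Hochberg adjustment). Of the 9 genes beside APEX1, 6 were lower by this test, with 15.2% of all tested genes lower, and 1 was higher, with 13.4% higher. The effect at 48 h minus that at 24 h was -1.28 on the log2 scale for OGG1 (± 0.20 SE, adjusted p = 0.000248), -1.06 for LIG3 (± 0.23 SE, adjusted p = 0.00275) and -1.01 for MUTYH (± 0.24 SE, adjusted p = 0.00563). All 3 were close to siNT1 at 24 h and below it at 48 h.

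The glycosylases NTHL1 and NEIL3 had differences of -0.95 (± 0.29 SE, adjusted p = 0.021) and -0.95 (± 0.22 SE, adjusted p = 0.00492). Both had siGGGGGC libraries above siNT1 at 24 h and below it at 48 h. Among all tested genes, 32% lay wholly above siNT1 at 24 h and 39.3% wholly below it at 48 h. The call of the difference for NTHL1 was lost without siNT1 24 h replicate 1 (-0.74), siGGGGGC 24 h replicate 1 (-0.89) or siGGGGGC 48 h replicate 1 (-0.75). PARP1 had -0.93 (± 0.21 SE, adjusted p = 0.00389).

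POLB was the gene with a positive difference, 0.59 (± 0.18 SE, adjusted p = 0.0216). Its call was lost when either siNT1 24 h library (0.56 and 0.60), either siGGGGGC 24 h library (0.54 and 0.62), siNT1 48 h replicate 1 (0.42) or either siGGGGGC 48 h library (0.60 and 0.55) was left out. For APEX1 the value was -1.21, given with no test since it rests in part on the contrast that APEX1 was picked from. The siNT1 libraries of both times enter each difference. Among the 12 proliferation genes 11 had a negative difference that passed (15.2% of all tested genes did), and their part was not tested.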

How the results depend on the processing

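Most limits come from 2 libraries a group: 1 library decided several calls near the threshold, given with their values above, and the falls of APEX1, OGG1, MUTYH, LIG3 and PARP1 and the rise of POLB with siGGGGGC at 48 h, and the falls of UNG, NEIL3, LIG3 and PARP1 with siGGCAGU, kept direction and call in all 12 alternatives each. Where the cause of a change is not named, the cause was not tested. Of the refits of single genes, 674 kept direction and side of the threshold, 55 lost a call, 9 gained one and 22 changed sign, all of uncalled values near 0. Asking also for a log2 fold change beyond 1 left fewer by construction: with siGGGGGC at 24 h 1 of the 10 genes instead of 3 and 2 of the 29 instead of 9, with siGGGGGC at 48 h 4 instead of 8 and 4 instead of 19, with siGGCAGU 3 instead of 7 and 10 instead of 19, between the siRNAs 3 instead of 8 and 6 instead of 18, for the difference between the times 4 instead of 8 and 3 instead of 15, and for siNT1 over time 0 instead of 3 and 0 instead of 5, since no value lay beyond 1. The counts of the 10 at 24 h and for the difference between the times include APEX1, whose values there are a description only. Fitting the compared groups alone called 5 of the 10 with siGGGGGC at 24 h and 1 for siNT1 over time. For siNT1 over time, upper quartile normalization called 5 of the 10 and 8 of the 29, and no filter on low counts and DESeq2 each called 1 of the 10. Leaving out 1 library gave 1 to 2 of the 10 and 4 to 6 of the 29 with siGGGGGC at 24 h, and 0 to 4 of the 10 and 1 to 7 of the 29 for siNT1 over time.

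Sign changes without 1 library were, as log2 ranges, -0.16 to 0.067 (OGG1), -0.158 to 0.158 (MUTYH) and -0.019 to 0.167 (LIG3) with siGGGGGC at 24 h, -0.299 to 0.071 (NTHL1) with siGGCAGU, -0.349 to 0.036 (LIG3) between the siRNAs, -0.349 to 0.127 (XRCC1) for the difference between the times, and -0.201 to 0.16 (XRCC1) and -0.136 to 0.141 (LIG3) for siNT1 over time. Other settings turned MUTYH at 24 h from 0.000 to 0.001 (size factors of DESeq2, DESeq2) and 0.013 (no filter), UNG with siGGGGGC at 48 h to -0.001 (no filter), and for siNT1 over time XRCC1 to 0.07 (no filter) and LIG3 to 0.08 (no filter) and 0.01 (compared groups alone). ACTGCC stood in 1 of the 10 longest 3′ UTRs and in 2 of the canonical ones. Replicate numbers did not pair the libraries (correlations of deviations between -0.089 and 0.027), and with the replicate block XRCC1 with siGGGGGC at 48 h (adjusted p = 0.0591) and POLB for siNT1 over time (-0.40, adjusted p = 0.0625) lost their calls, with no other call of the 10 changed.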

Other observations

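The coding sequences also held the seed words. XRCC1 had 4 GCCCCC in its longest coding sequence, OGG1 and LIG3 had 2 each, and UNG, MUTYH and NTHL1 had 1 each, while 41.8% of the 19702 genes with an annotated coding sequence held at least 1. ACTGCC stood at 2 places in the coding sequence of PARP1 and once in those of XRCC1 and LIG3, a word that 38.6% of genes held. APEX1 had neither word in its coding sequence. CGACTA, the match to the seed of siNT1, was absent from the longest 3′ UTR of all 10 genes, and 2.7% of genes with an annotated 3′ UTR held it.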
